A study of Arabidopsis thaliana with 9 samples.

Results

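Cuticular wax and very-long-chain fatty acid elongation were followed through 36 gene loci of Arabidopsis thaliana, out of 37336 loci counted in whole seedlings. The loci were chosen by family and role. They are the 21 ketoacyl-CoA synthase genes (KCS1 to KCS21), KCR1, PAS2 and CER10 of the elongase, and CER1, a CER1-like gene (AT1G02190), CER2, CER3, CER4, WSD1 and MAH1 of wax synthesis. The acyl-CoA synthetase genes LACS1 and LACS2 and the regulator genes MYB30, MYB94 and MYB96 complete the set. The rule itself uses no measured value, but the set was chosen with earlier results of these same data known, so counts over the set describe these genes and are no independent evidence about the pathway.

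The seedlings were wild type (Col-0) and had spent 7 days in 3 ml of liquid Murashige and Skoog medium, entered 3 days after germination, at 22 °C under a long day (16 h light, 8 h dark). The medium was then renewed for 3 h. For 3 mock libraries it held 0.1% DMSO, and for 3 ABA libraries it held 10 µM abscisic acid (ABA), the hormone of drought and seed dormancy. A DMSO content is labelled for mock only. Another group of 3 samples, given 10 µM of a compound labelled iCB, was not analysed here, because the remaining 3 count columns carry no name found in any label.

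The cuticle covers the aerial epidermis and limits water loss. Its waxes start from fatty acids made in plastids, which an elongase in the endoplasmic reticulum lengthens in repeated cycles. In each cycle a KCS condenses the acyl chain with malonyl-CoA, and a KCS sets which chain lengths are accepted. KCR1 then reduces, PAS2 dehydrates and CER10 reduces again. The long acyl chains are turned into alkanes by CER1 with CER3, or into primary alcohols by CER4, which WSD1 joins to fatty acids as wax esters. MYB96 and MYB94 are known as activators of wax genes under drought, and MYB30 as an activator of elongase genes in pathogen responses.

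Depth was even, with 21585450 to 22528897 counts in the mock libraries and 22449479 to 22722904 in the ABA libraries. The treatment marker gene RAB18, a dehydrin gene, stood at 1.20, 2.60 and 2.95 CPM in the mock libraries and at 1086.3, 1289.3 and 1231.1 CPM in the ABA libraries. RD29A and HAI1, also ABA-responsive, rose by 5.50 ± 0.37 and 8.42 ± 0.25 on the log2 scale (SE). CPM are counts scaled to library size, here after scaling by trimmed mean of M values (TMM). The shoot genes RBCS1A and LHCB2.1 summed to 7125.0 to 8890.4 CPM over the 6 libraries and 4 root genes to 55.4 to 82.7 CPM, whereas 3 flower identity genes summed to at most 1.99 CPM, which are the levels of a whole seedling with no flowers.

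The upstream sequences of 4 members with large rises or high levels are shown because they differ in the core of the ABA-responsive element (ABRE), the letters ACGTG. Each window is the 250 bases before the annotated gene start in the RefSeq annotation of TAIR10.1, written 5′ to 3′ on the gene's strand, with every ACGTG of either strand in capitals. None of these 4 windows lies in an annotated exon. KCS6 (AT1G68530, chr1:25715025-25715274, minus strand) holds 4 matches, which begin 219, 153, 147 and 86 bases before the start. CER1 (AT1G02205, chr1:418166-418415, plus strand) holds 1, beginning 44 bases before the start. WSD1 (AT5G37300, chr5:14767176-14767425, plus strand) and MYB96 (AT5G62470, chr5:25081142-25081391, minus strand) hold none.
KCS6: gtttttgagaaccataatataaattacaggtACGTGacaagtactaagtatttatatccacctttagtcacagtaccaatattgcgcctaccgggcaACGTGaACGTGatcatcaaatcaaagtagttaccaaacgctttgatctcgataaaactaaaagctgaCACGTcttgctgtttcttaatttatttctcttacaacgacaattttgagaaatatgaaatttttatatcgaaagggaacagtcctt
CER1: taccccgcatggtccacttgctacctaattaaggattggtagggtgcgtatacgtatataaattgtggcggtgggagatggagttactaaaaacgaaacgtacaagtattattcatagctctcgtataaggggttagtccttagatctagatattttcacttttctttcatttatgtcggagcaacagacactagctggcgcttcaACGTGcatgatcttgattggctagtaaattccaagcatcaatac
WSD1: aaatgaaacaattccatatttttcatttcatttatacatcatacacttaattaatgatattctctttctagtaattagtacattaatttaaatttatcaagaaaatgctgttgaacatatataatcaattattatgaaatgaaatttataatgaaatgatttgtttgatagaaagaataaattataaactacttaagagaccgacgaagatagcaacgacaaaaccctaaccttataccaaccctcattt
MYB96: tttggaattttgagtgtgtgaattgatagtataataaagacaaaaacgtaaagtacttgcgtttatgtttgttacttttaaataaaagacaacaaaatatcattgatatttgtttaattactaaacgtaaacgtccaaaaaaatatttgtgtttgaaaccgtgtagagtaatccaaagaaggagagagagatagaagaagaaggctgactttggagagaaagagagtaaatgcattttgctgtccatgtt

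Across the 36 members, 7 windows held ACGTG on either strand, against 22.9% of 27443 windows of nuclear protein-coding genes. The 7 were those of KCS4, KCS6, KCS7, KCS21, CER1, CER2 and CER4, a group that holds rises, a fall and genes with almost no counts. Most of the CER2 window, 231 bases, lies in exons annotated for other loci. So do large parts of the windows of PAS2 (224 bases), KCR1 (171 bases) and KCS15 (167 bases), which hold no ACGTG. The G-box CACGTG, which contains ACGTG, was in no member's window and in 6.5% of all windows. The MYB core AACCA was in 19 of the 36, against 51.1% of all windows. A match is a string of letters and was not tested for binding.

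Of the 36 members, 29 had enough counts to be tested, and 7 did not pass the filter on low counts. ABA raised 23 of the 29 and lowered 3, where 31.0% of all 21092 tested genes were called higher and 29.4% lower by edgeR's quasi-likelihood test at a Benjamini-Hochberg adjusted p below 0.05 (60.4% in either direction). Of these, 22 rose by at least 1 on the log2 scale and 2 fell by at least 1, against 11.7% and 8.76% of all genes. The median log2 fold change (ABA minus mock) was 1.72, against -0.012 over all tested genes. Every ABA library stood above every mock library for 23 members and below for 3, against 34.5% and 33.4% of all genes. In whole seedlings, more cells of a type and more RNA per cell cannot be told apart. Of the 6 epidermal marker genes measured beside them 3 were called higher and 2 lower: ATML1, PDF1 and HDG2 rose by 0.40, 0.69 and 0.35, PDF2 fell by 0.62 and HDG11 fell by 0.74, and HDG12 was not called at 0.07. Their summed level was 193.2 to 231.4 CPM in mock and 223.5 to 247.0 CPM in ABA. The part of epidermal cell number in the wax gene changes was not tested.

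**Figure D1:**
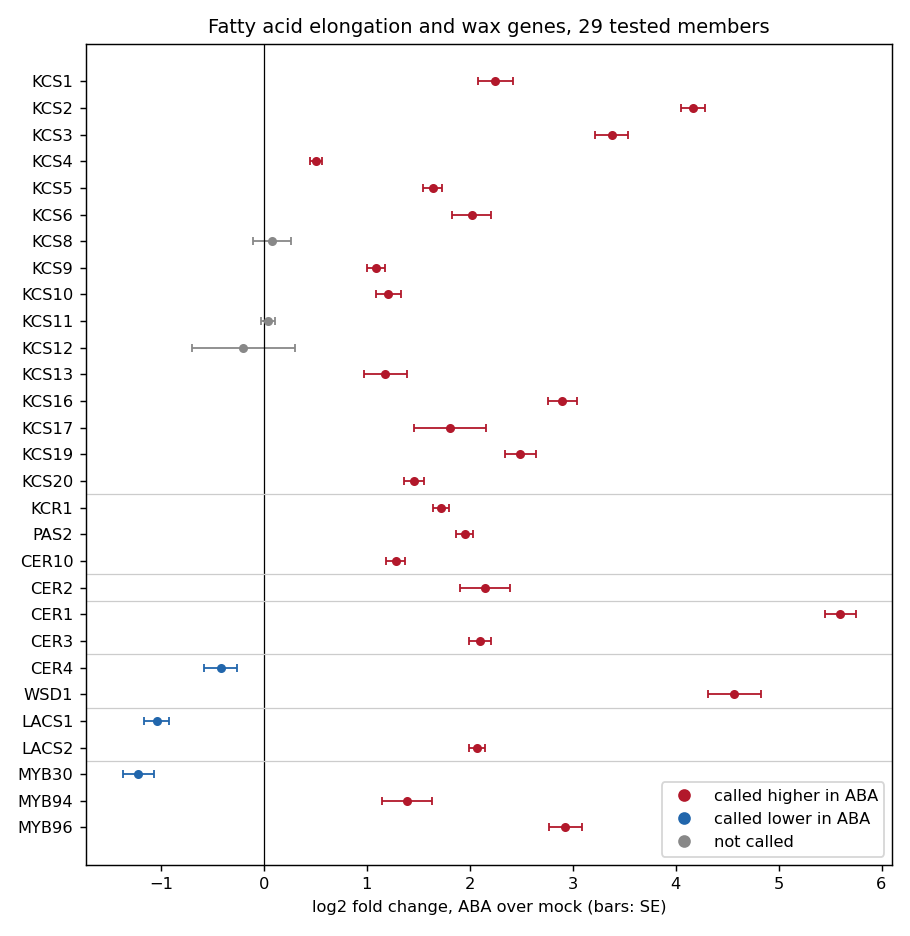
Log2 fold change, ABA over mock, of the 29 tested members, in blocks by role (KCS enzymes, other elongase subunits, CER2, alkane branch, alcohol and ester branch, acyl-CoA synthetases, MYB regulators); points are edgeR estimates and bars their standard errors. Of the 29, 23 are called higher, from 0.51 for KCS4 to 5.60 for CER1, while CER4, LACS1 and MYB30 are called lower.

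Most condensing enzyme genes that could be tested rose, by unequal amounts. Of 21 KCS genes 16 were tested, and 13 rose (81.2%, against 31.0% of all tested genes) and none fell, with a median log2 fold change of 1.55. KCS6 (CER6), the main condensing enzyme of wax synthesis in shoots, stood at 214.2, 249.5 and 356.9 CPM in the mock libraries and at 1148.2, 1151.5 and 1035.9 CPM in the ABA libraries. It had the highest level of the family in both groups, and its groups did not overlap, although mock replicate 3 lay well above the other mock libraries. Its log2 fold change was 2.02 ± 0.19 (SE; adjusted p = 9.21e-05 in edgeR's quasi-likelihood test). KCS5 (CER60), its closest relative in coding sequence, went from 23.9, 24.2 and 27.8 CPM to 78.7, 86.1 and 71.7 CPM, a rise of 1.64 ± 0.09 (edgeR adjusted p = 9.09e-07).

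The largest relative rises of the family were those of KCS2 and KCS3. KCS2 (DAISY), known for root suberin and for wax, stood at 16.8, 19.5 and 15.0 CPM in mock and at 332.9, 311.3 and 277.9 CPM in ABA. All 3 ABA libraries were far above mock, and it rose 18.0-fold, by 4.17 ± 0.12 on the log2 scale (edgeR adjusted p = 2.29e-08). An antisense locus, AT1G04247, covers 61.5% of its exon bases on the opposite strand; it held 22 to 30 counts in mock and 140 to 188 in ABA, against 367 to 458 and 5869 to 6974 for KCS2. The library kit keeps strand, but whether the counting used it is not given, so reads of the pair may be mixed. KCS3, described in Arabidopsis as an atypical member that restrains wax production, stood at 33.5, 33.2 and 47.2 CPM in mock and at 421.0, 416.5 and 348.9 CPM in ABA. It rose 10.4-fold, by 3.38 ± 0.16 (edgeR adjusted p = 2.07e-06), again with no overlap.

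KCS16, linked to the longest wax chains of leaves and trichomes, was low in mock at 1.65, 2.09 and 2.46 CPM and reached 15.3, 14.8 and 16.2 CPM in ABA, a rise of 2.90 ± 0.14. KCS19 rose by 2.49 ± 0.15, from 19.1, 17.1 and 26.0 to 121.8, 115.0 and 112.5 CPM. KCS1, which acts early in elongation for wax, rose by 2.25 ± 0.17, from 53.2, 57.5 and 77.9 to 343.6, 294.9 and 259.3 CPM. These 3 genes reached quite different ABA levels at similar fold changes, and none overlapped between groups (edgeR adjusted p at most 3.74e-05).

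KCS20, KCS10, KCS9 and KCS4 rose less. KCS20, which shares its suberin role with KCS2, rose by 1.46 ± 0.10, from 97.6, 91.7 and 114.3 to 305.6, 275.5 and 256.1 CPM. KCS10 (FIDDLEHEAD), which keeps organs from fusing, rose by 1.21 ± 0.12, from 148.5, 150.4 and 200.9 to 400.5, 385.9 and 371.5 CPM. KCS9 rose by 1.09 ± 0.09, from 59.0, 60.3 and 73.1 to 140.1, 134.4 and 135.0 CPM. In all 3, every ABA library was above every mock library. KCS4 rose least, by 0.51 ± 0.06, from 39.1, 36.1 and 37.3 to 52.3, 54.5 and 53.4 CPM, and these 4 genes passed edgeR's quasi-likelihood test with adjusted p at most 9.84e-05. Sparse genes rose too. KCS17 rose by 1.81 ± 0.35 (edgeR adjusted p = 0.00187), from 0.620, 1.36 and 0.697 to 4.15, 2.25 and 2.98 CPM. KCS13 rose by 1.18 ± 0.21 (edgeR adjusted p = 0.00158), from 5.87, 4.14 and 5.25 to 14.9, 10.8 and 9.0 CPM. KCS13 (HIC), which affects stomatal number under high carbon dioxide, is 99.0% identical in coding sequence to KCS14, and 63.45% of the 50-base stretches of KCS14 exons also occur in other loci, mainly KCS13. How reads with several matches were counted is not given, so the values of this pair are uncertain.

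KCS8, KCS11 and KCS12 were not called. KCS8 stood at 25.6, 27.0 and 37.6 CPM in mock and at 26.7, 31.8 and 36.8 CPM in ABA, a log2 fold change of 0.08 ± 0.18 (edgeR adjusted p = 0.726). KCS11 stood at 32.2, 30.4 and 30.1 CPM and at 30.1, 33.7 and 31.3 CPM, or 0.04 ± 0.07 (edgeR adjusted p = 0.677); with scaling by upper quartile or by library totals, which lowered the median of all genes by 0.21 and 0.23, it was called lower, at -0.17 and -0.19. KCS12 varied widely among mock libraries, at 21.7, 7.50 and 26.3 CPM, and overlapped the ABA libraries at 17.8, 12 and 18.5 CPM, with -0.20 ± 0.50 (edgeR adjusted p = 0.751). Without mock replicate 2, its lowest mock library, KCS12 was called lower at -0.58 (edgeR adjusted p = 0.0462), and without mock replicate 3 it stood at 0.12 and was not called. KCS8 too changed sign, without a call, to between -0.15 and -0.02 in 4 alternatives.

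The remaining 5 KCS genes were near 0. KCS7 and KCS18 (FAE1), the elongase of seed oil, had no count in any of the 6 libraries, which over the 3 libraries of a group allows up to 0.0416 CPM in mock and 0.0480 CPM in ABA by counting error alone. KCS14, KCS15 and KCS21 held at most 3 counts in any library.

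Set per exon length as TPM, counts divided by exon length and scaled to the same total in every library, the KCS genes together held 595.8, 608.1 and 809.7 TPM in the mock libraries and 2279.6, 2139.5 and 1993.7 TPM in the ABA libraries. KCS6 made up 26.5% ± 2.80 of this sum in mock and 29.6% ± 0.617 in ABA (SD, n = 3), and led in all 6 libraries. In mock it was followed by KCS10 (18.8% ± 0.120), KCS20 (11.7% ± 0.833), and KCS1 (7.78% ± 0.328) with KCS9 (7.64% ± 0.364), which overlapped. In ABA it was followed by KCS3 (13.1% ± 0.560), KCS10 (11.9% ± 0.380), and KCS2 (10.4% ± 0.262) with KCS1 (10.1% ± 0.808), which overlapped. KCS3 moved from rank 6 to rank 2, KCS2 from rank 12 to rank 4, and KCS20 from rank 3 to rank 6. KCS3 and KCS2 gained share in every ABA library, while KCS10, KCS20 and KCS9 lost share although their own levels rose.

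**Figure D2:**
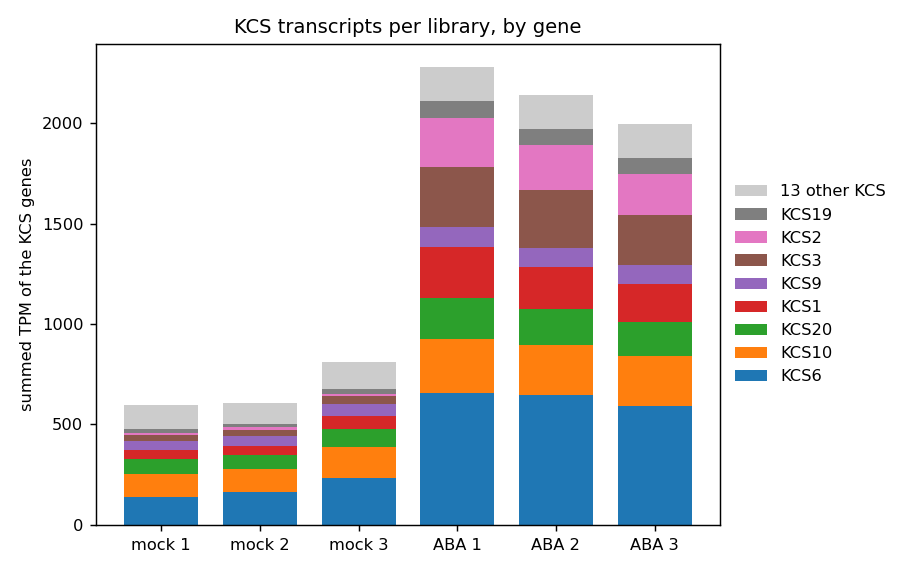
Summed TPM of the 21 KCS genes in each of the 3 mock and 3 ABA libraries, with 8 genes stacked singly and the 13 others together. The ABA bars reach 1993.7 to 2279.6 TPM and the mock bars 595.8 to 809.7 TPM, and the KCS2 and KCS3 segments widen most in relative terms.

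Pairs of related genes were compared within each library. Identity is over aligned coding bases, and levels are compared as TPM ratios. KCS2 and KCS20 are 84.1% identical, and the ratio of KCS2 to KCS20 was 0.186, 0.231 and 0.143 in mock and 1.18, 1.23 and 1.18 in ABA. KCS2 thus went from the lesser to the greater of the pair in all ABA libraries. KCS3 and KCS12 are 80.3% identical; their ratio was 1.81, 5.18 and 2.1 in mock and 27.7, 40.6 and 22.1 in ABA. KCS16 and KCS8 are 77.8% identical, and their ratio rose from 0.0599, 0.0719 and 0.0607 to 0.530, 0.433 and 0.409. For KCS6 and KCS5, 81.3% identical, the ratio was 7.23, 8.29 and 10.3 in mock and 11.8, 10.8 and 11.6 in ABA, a change of 1.33 times, the smallest of the 12 pairs compared. KCS17 and KCS9, 79.2% identical, had ratios of 0.0109, 0.0235 and 0.00991 in mock and 0.0308, 0.0174 and 0.0230 in ABA, which overlapped (exact two-sided permutation test, p = 0.30). For the remaining 11 pairs, some of them given below, the groups did not overlap and the exact two-sided permutation p was 0.10, the smallest that 3 against 3 libraries can give. With 3 against 3 libraries none of the 12 could pass 0.05, with or without Benjamini-Hochberg adjustment. This test therefore cannot decide whether a ratio changed.

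The other elongase subunits, each encoded by 1 main gene, rose with the condensing enzymes, by amounts within the range of the KCS genes. KCR1, the ketoacyl reductase, stood at 66.6, 72.6 and 67.0 CPM in mock and at 248.3, 217.7 and 214.9 CPM in ABA, a log2 fold change of 1.72 ± 0.08. PAS2, the dehydratase, whose loss disturbs cell division and shoot form, stood at 58.2, 64.6 and 61.6 CPM and at 238.1, 258.5 and 217.5 CPM, or 1.95 ± 0.08. CER10, the enoyl reductase, stood at 84.0, 90.7 and 103.1 CPM and at 229.6, 234.0 and 211.3 CPM, or 1.28 ± 0.09. No groups overlapped, and all 3 passed edgeR's quasi-likelihood test (adjusted p at most 3.20e-06).

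CER2, a partner protein that lets KCS6 reach the longest chains, stood at 24.6, 29.4 and 45.6 CPM in mock and at 154.1, 156.0 and 133.1 CPM in ABA. Its groups did not overlap and it rose by 2.15 ± 0.24 (edgeR adjusted p = 4.96e-04). Loci on the opposite strand overlap 19.4% (AT4G07275) and 5.90% (AT4G24520) of its exon bases; the former held 11 to 24 counts in mock and 32 to 60 in ABA, the latter 2633 to 2965 and 2704 to 2877. Its relative CER26, which serves elongation in leaves, fell by 0.54 ± 0.12, from 110.0 ± 19.2 to 75.4 ± 5.46 CPM (mean ± SD, n = 3). Per length, the ratio of CER2 to CER26 was 0.307, 0.384 and 0.437 in mock and 2.56, 2.83 and 2.09 in ABA, so CER26 was the more abundant in every mock library and CER2 in every ABA library.

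The alkane branch held the largest fold change of the set. CER1, which forms alkanes, stood at 10.0, 10.5 and 14.4 CPM in mock and at 549.8, 609.0 and 534.3 CPM in ABA, so that even the lowest ABA library was far above the highest mock library. Its log2 fold change was 5.60 ± 0.15 (edgeR adjusted p = 3.73e-08). CER3, its partner in alkane formation, stood at 42.4, 36.2 and 48.3 CPM and at 195.0, 178.2 and 170.6 CPM, a rise of 2.1 ± 0.11 (edgeR adjusted p = 7.43e-07). Per length, CER1 was the lesser of the 2 in every mock library, at 0.170, 0.209 and 0.214 of CER3, and the greater in every ABA library, at 2.03, 2.46 and 2.26 of it. The CER1-like gene AT1G02190, next to CER1 on chromosome 1 and 65.6% identical to it in aligned coding bases, held 1 to 6 counts in every library and was not tested. CER1 and AT1G02190 shared no exact 50-base stretch within an exon. Reads that cross splice junctions or align with mismatches were not checked. MAH1, which oxidises stem alkanes to secondary alcohols and ketones, had no count in mock and 3, 4 and 3 counts in ABA. Against a floor of 3 counts over the mock group its measured ABA level was 3.84-fold higher, with no allowance for counting error in ABA. MAH1 did not pass the filter, was not tested and reached at most 0.196 CPM.

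The alcohol and ester branch was divided. WSD1, the wax ester synthase, stood at 0.413, 0.426 and 0.984 CPM in mock, or 10, 10 and 24 counts, and at 13.5, 16.8 and 13.6 CPM in ABA. It rose by 4.57 ± 0.26 (edgeR adjusted p = 2.09e-06). CER4, the reductase that makes primary alcohols, stood at 6.20, 6.57 and 4.72 CPM in mock and at 4.53, 3.87 and 4.64 CPM in ABA, with the lowest mock library close to the highest ABA library. Its fall of -0.42 ± 0.16 only just passed (edgeR adjusted p = 0.0479), and it did not pass in DESeq2 (adjusted p = 0.0858) or limma-voom (adjusted p = 0.0593), nor when any single library but mock replicate 3 was left out.

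The acyl-CoA synthetases, which activate fatty acids for wax and cutin, moved in opposite directions. LACS1 (CER8), which favours very long chains, stood at 113.6, 85.6 and 111.4 CPM in mock and at 45.7, 52.5 and 53.2 CPM in ABA. It fell by 1.04 ± 0.12 on the log2 scale, with every ABA library below every mock library (edgeR adjusted p = 1.15e-04). LACS2, known for cutin, stood at 26.5, 27.2 and 27.4 CPM and at 120.9, 118.0 and 100.7 CPM, a rise of 2.07 ± 0.08 (edgeR adjusted p = 1.24e-07). The ratio of LACS2 to LACS1 per length was 0.253, 0.343 and 0.266 in mock and 2.86, 2.43 and 2.05 in ABA.

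The MYB regulators were divided in the same way. MYB96 stood at 14.6, 11.3 and 12.1 CPM in mock and at 112.2, 99.1 and 77.9 CPM in ABA, and rose by 2.93 ± 0.16 (edgeR adjusted p = 5.30e-06). MYB94, 84.4% identical to it in aligned coding bases, stood at 5.79, 5.50 and 9.10 CPM and at 21.5, 18.0 and 14.0 CPM, a rise of 1.39 ± 0.24 (edgeR adjusted p = 0.00210). MYB30 stood at 18.0, 19.9 and 27.1 CPM in mock and at 9.45, 9.35 and 9.09 CPM in ABA, and fell by 1.22 ± 0.15 (edgeR adjusted p = 1.85e-04). Per length, the ratio of MYB96 to MYB30 was 0.884, 0.615 and 0.487 in mock and 12.9, 11.5 and 9.31 in ABA, so that MYB30 was the more abundant in every mock library and MYB96 in every ABA library. The ratio of MYB96 to MYB94 was 2.68, 2.17 and 1.41 in mock and 5.52, 5.84 and 5.89 in ABA.

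**Figure D3:**
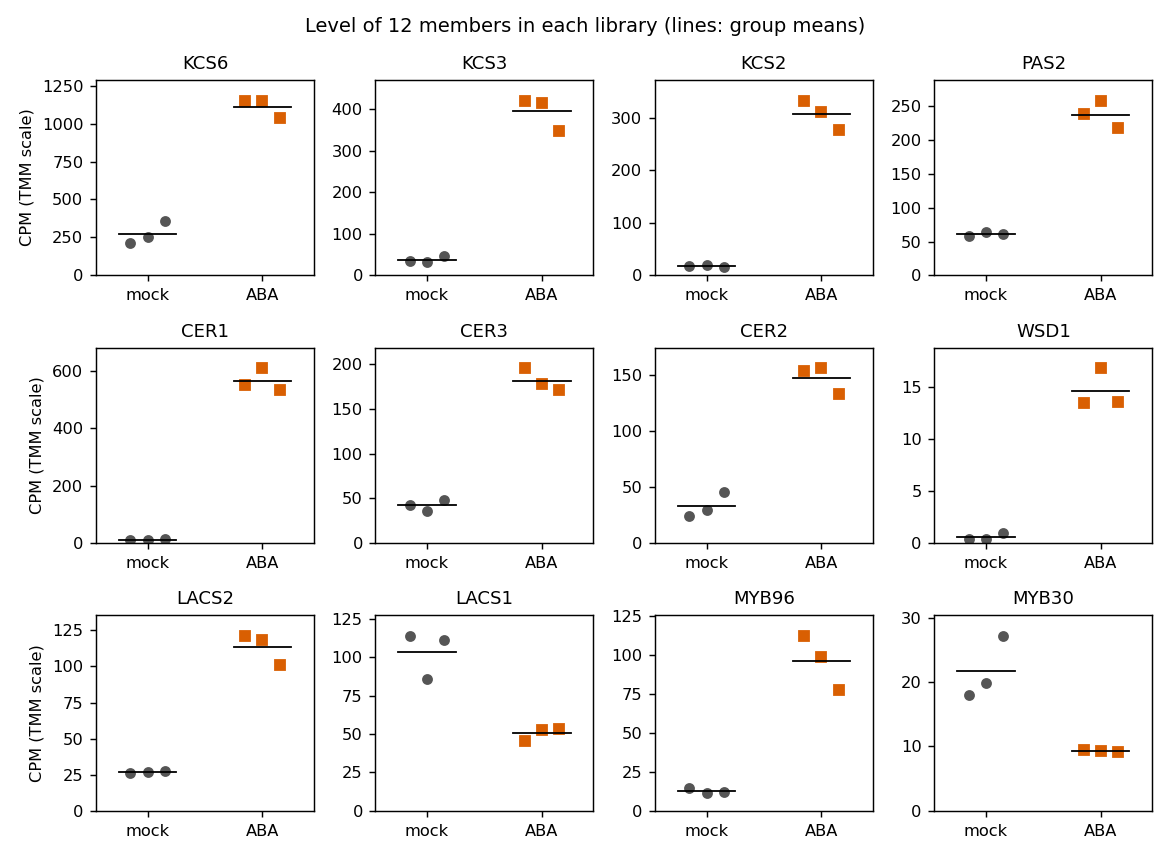
CPM on the TMM scale of 12 members in each mock library (circles) and ABA library (squares), each panel on its own linear axis from 0, with lines at group means. The groups are separate in every panel, with ABA below mock only for LACS1 and MYB30.

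Mock replicate 3 held more of these transcripts than the other mock libraries. It was the highest of the 3 mock libraries for 19 of the 29 tested members (65.5%), against 34.2% of all tested genes. The same held for all 6 export genes and 9 of 12 cutin genes listed below, so it is not particular to the members. The median excess over the mean of mock replicates 1 and 2 was 0.29 on the log2 scale, against 0.01 over all genes. The members' median SD of log2 CPM was 0.251 among mock and 0.127 among ABA libraries, against 0.119 and 0.110 over all genes. Of the ABA-responsive genes RD29A, RAB18 and HAI1, 2 were also highest there. RD29A stood at 94.7, 109.4 and 209.4 CPM in mock replicates 1, 2 and 3, and RAB18 at 1.20, 2.60 and 2.95 CPM. HAI1 was lowest there, at 2.52, 3.11 and 1.31 CPM. Of the 6 epidermal markers, 4 were highest in mock replicate 3. What part an ABA response or epidermal cells had in the excess was not tested. Without mock replicate 3, 23 members were again called higher and 3 lower.

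The genes around this pathway were followed in 6 further lists, whose counts are to be read against the 31.0% of all tested genes called higher and the 29.4% called lower. Of 8 other elongation genes 4 rose and 2 fell, with a median log2 fold change of 0.28. ACC1, the cytosolic carboxylase that makes malonyl-CoA for elongation, stood at 161.2, 172.5 and 164.9 CPM in mock and at 479.7, 495.7 and 453.6 CPM in ABA, a rise of 1.52 ± 0.07. KCR2, the lesser copy of the reductase gene, rose by 2.62 ± 0.23 but reached only 5.65 ± 0.387 CPM, and AT3G23840, annotated as an acyltransferase gene of the HXXXD type, rose by 2.01 ± 0.22 to 8.67 ± 0.967 CPM. The scaffold gene PAS1 rose by 0.47 ± 0.06. PTPLA (AT5G59770), a relative of PAS2, fell by 0.37 ± 0.08, unlike PAS2 itself. ACC2 and CBR1 were not called, at -0.18 ± 0.09 and 0.09 ± 0.06.

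All 6 export genes were called, 5 of them higher (83.3%; median 1.09). The transporter genes ABCG12 (CER5) and ABCG11, which move wax across the plasma membrane, rose by 1.74 ± 0.15 and 1.37 ± 0.15, to 244.7 ± 16.5 and 201.5 ± 13.3 CPM. The lipid transfer protein genes LTPG1 and LTPG2 rose by 1.47 ± 0.10 and 0.81 ± 0.10. ABCG13, a transporter of flower cutin, was lower at -0.59 ± 0.22, a call lost in DESeq2 and when any single library but ABA replicate 3 was left out.

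Of 12 cutin genes 11 rose (91.7%) and none fell (median 1.20). The oxidase genes CYP86A4 and CYP86A8 (LACERATA) rose by 2.53 ± 0.11 and 1.48 ± 0.06, and CYP77A4 by 1.80 ± 0.15. The acyltransferase gene GPAT4 rose by 1.40 ± 0.12 and BDG1 (BODYGUARD) by 1.29 ± 0.11. HTH (HOTHEAD), whose loss fuses organs, rose by 0.74 ± 0.07. CYP77A6 stood at -0.01 ± 0.19. The rise of CYP86A7 (0.65 ± 0.24) was lost in DESeq2, with upper-quartile factors, library totals or no low-count filter, and with the replicate block. It was also lost when any single library was left out. The rise of GPAT8 (0.44 ± 0.15) was lost with upper-quartile factors, library totals or no low-count filter. The GPAT8 call was also lost when any single library but mock replicate 3 was left out.

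Among 8 tested cuticle regulators 6 rose (75.0%) and 2 fell (25.0%; median 1.00). MYB41, an activator of suberin and cuticle genes, rose by 4.99 ± 0.16 to 31.5 ± 4.54 CPM. MYB16, a regulator of cutin, rose by 1.17 ± 0.14. DEWAX, a repressor of wax genes in darkness, stood at 43.2 to 68.5 CPM in mock and at 14.9 to 19.4 CPM in ABA (53.9 ± 13.1 and 16.6 ± 2.42, mean ± SD, n = 3), and fell by 1.70 ± 0.20 (edgeR adjusted p = 3.94e-04). CER7, an exosome subunit that acts on CER3 transcript level, fell by 0.54 ± 0.07, and the ubiquitin ligase gene CER9 rose by 0.46 ± 0.06. The wax inducer gene WIN1 held at most 2 counts in any library, and its relative SHN3 rose by 2.29 ± 0.51 from under 0.5 CPM, or by 3.22 without mock replicate 3. SHN2, also sparse, rose by 1.11 ± 0.40. The SHN2 call was lost in DESeq2, with upper-quartile factors, library totals or no low-count filter, and with the replicate block. It was also lost when any single library but mock replicate 2 was left out.

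Of 6 other acyl-CoA synthetase genes 4 rose (66.7%) and 1 fell (16.7%; median 0.58). LACS8 stood at 46.9, 47.6 and 43.1 CPM in mock and at 483.0, 516.3 and 498.3 CPM in ABA, and rose 10.9-fold, by 3.44 ± 0.07 (edgeR adjusted p = 5.71e-09). LACS9, of the plastid envelope, and the peroxisomal LACS7 rose by 1.26 ± 0.07 and 0.75 ± 0.10. LACS4 rose by 0.40 ± 0.08, a call lost with upper-quartile factors and library totals. LACS3 fell by 0.87 ± 0.09, and LACS6 was not called at 0.16 ± 0.08.

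Fatty acid synthesis in plastids supplies the elongase. Of 11 genes 7 rose (63.6%) and 1 fell (9.09%), with a median of 0.22; with library totals 3 rose. The rise of FAB1 (0.17 ± 0.06) was lost in DESeq2, with upper-quartile factors or library totals, and when any single library was left out. It was also lost with no low-count filter or a stricter one of 5 CPM. The thioesterase genes FATB and FATA, which release fatty acids from acyl carrier protein, rose by 1.23 ± 0.06 and 1.02 ± 0.10. CAC1, the biotin carrier of the plastid carboxylase, rose by 0.85 ± 0.06. CAC2, of the same enzyme, rose by 0.34 ± 0.06 but was not called with upper-quartile factors or library totals. The condensing enzyme genes KASI and KASIII were not called, at 0.13 ± 0.06 each, and the desaturase gene FAB2 (SSI2) fell by 0.20 ± 0.07, a call lost when mock replicate 1 or 3 or ABA replicate 2 or 3 was left out.

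**Figure D4:**
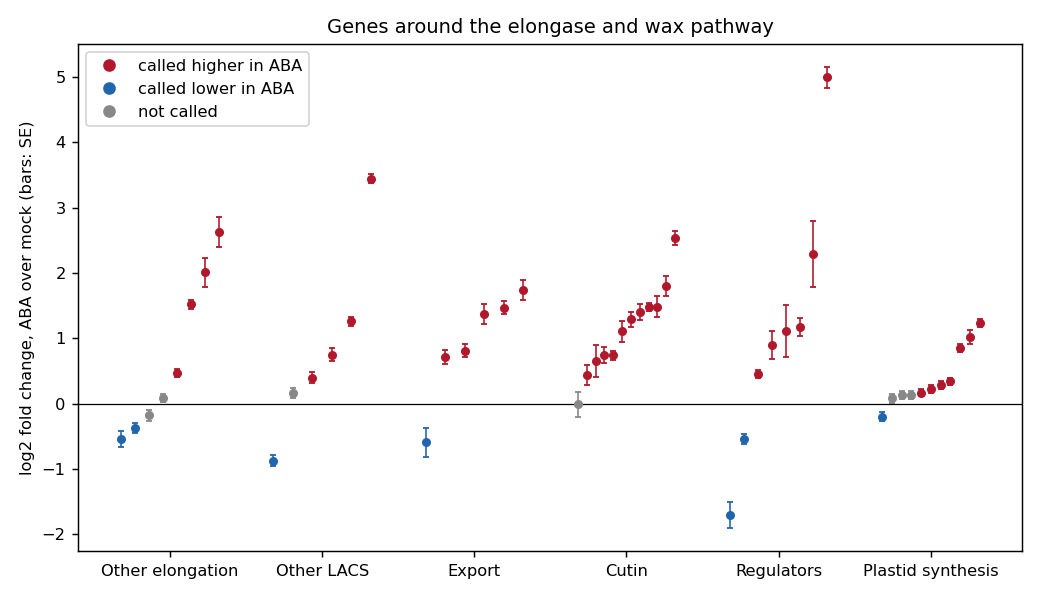
Log2 fold change, ABA over mock, of each tested gene in 6 lists around the pathway, sorted within each list; points are edgeR estimates and bars their standard errors. The cutin and export lists lie mostly above 0.4, MYB41 stands highest at 4.99, and the plastid synthesis genes lie between -0.20 and 1.23, with FATB, FATA and CAC1 highest.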

How the data were processed

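RNA-seq of whole seedlings was analysed for 6 of 9 samples. The authors deposited raw counts per locus, whole numbers with no normalization, for 37336 loci. The tools named per the submitters' processing notes are STAR, cutadapt, FastQC and DESeq2, with TAIR10 as the build. Not given in the sources used here: tool versions, the counter, whether it used strand, and how it treated reads with several matches. Per the labels' protocols the mRNA kit was strand-specific. Columns were matched to samples by name; 3 columns match no label and were not used, so nothing was compared with iCB.

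Tests used edgeR 4.0.16 under R 4.3.3: filterByExpr, TMM scaling, and the quasi-likelihood F test with robust dispersions on the 6 libraries, with Benjamini-Hochberg adjustment over 21092 genes. Each SE was taken as the size of the log2 fold change over the root of its F statistic. The biological coefficient of variation was 11.3%. TPM used the union of annotated exons and no TMM factor. It served to compare genes and to give the summed KCS level of each library. The summed KCS TPM are therefore not on the TMM scale of the CPM and fold changes. The labels call the replicates independent biological ones. The fit was tested on simulated data. Floors cover counting error only, whereas each SE and SD includes the spread between libraries.

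Names, exon lengths, coding sequences and upstream windows came from RefSeq's TAIR10.1, joined to the counts by locus alone; 37051 loci were found. Likeness was planned on proteins and computed on coding sequences. The members and lists were chosen with earlier results of these data known; 7 of 57 other listed genes have no such symbol in the reference; 2 were kept under their loci (PTPLA, AT3G23840), and 5 were left out, of which 2 were called higher, 2 not called and 1 not tested. Members were given in full where called and moved by 1 or more (log2), or at 5 CPM or more, and in each further list the 4 called genes with the smallest adjusted p plus those moving against their list; further genes were named after their values were seen. Alternatives were DESeq2 1.42.0, limma-voom (limma 3.58.1), other scalings, filters and thresholds, the replicate block and each library left out.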

Additional observations from a re-analysis of the deposited data

How the results depend on the processing

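Over 14 alternatives, 25 of the 26 called members kept their direction and call in every one run, the exception being CER4; KCS17 did not pass the stricter filter. The uncalled KCS8, KCS11 and KCS12 changed sign in some. KCS11 turned from 0.04 to -0.17 with upper-quartile factors and to -0.19 with library totals, as these lower all genes. Between 22 and 24 members were called higher and between 2 and 4 lower; leaving out 1 library gave 23 higher each time and 2 to 3 lower. With library totals 9459 genes were called lower, and higher calls made up 32.1% of all calls against 51.3% with TMM; with upper-quartile factors it was 33.7%. Adding a minimum log2 fold change of 1 left 2471 genes higher and 1847 lower. In the further lists it left 0 other elongation genes lower, 3 export genes higher and 0 lower, 7 cutin genes higher, 1 regulator lower, 2 other LACS genes higher and 0 lower, and 2 plastid synthesis genes higher and 0 lower. The 1 lower export gene, ABCG13, was lost (0 lower) in DESeq2, with the stricter filter of 5 CPM, and at an adjusted p below 0.01; without single libraries the count was 0 to 1. The 1 lower plastid gene, FAB2, was lost (0) below 0.01, and without single libraries the count was 0 to 1. With upper-quartile factors or library totals 3 plastid genes were higher; FAB1 turned to -0.04 and -0.06 and MOD1 to -0.01 (library totals). With the stricter filter 3 regulators were higher, since fewer were tested. The cause was not tested elsewhere.

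Same-numbered mock and ABA libraries deviated together only weakly (correlations 0.0663, 0.0838 and 0.203), so the numbers were not taken as pairing; each library correlated best with its own number. With the replicate number as a block, 23 members were higher and 2 lower, with CER4 at -0.41 (edgeR adjusted p = 0.0694), and 6586 genes were higher and 6229 lower. The 3 libraries a group limit small changes, and sparse genes (WSD1 in mock, KCS13, KCS17) rest on few counts.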
